A study of Mus musculus with 5 samples.

Results

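The genes of the mitochondrial pyruvate dehydrogenase complex, its kinases and its phosphatases were followed over 5 arrays of 32D cells, a mouse myeloid progenitor line that normally needs interleukin-3. The 10 genes are the phosphatases Pdp1 and Pdp2, the kinases Pdk1, Pdk2, Pdk3 and Pdk4, and the subunits Pdha1, Pdhb, Dlat and Pdhx, out of 18193 genes with a probe set. All 18 probe sets that the array's annotation assigns to them were taken. The set was chosen by a reading of these arrays, the low value of Pdp1 on ITD613, so that reading is given as a description and supports nothing. The cells carried 1 of 5 retroviral FLT3-ITD constructs, named ITD78, ITD598, ITD602, ITD611 and ITD613 in the labels, with 1 array each. FLT3 is a cytokine receptor with tyrosine kinase activity found on blood progenitors, and internal tandem duplications (ITDs) leave it switched on in the absence of ligand. Cells of all 5 groups were stably transduced, starved for 3 h and then given a tyrosine kinase inhibitor (TKI), which the labels do not name, for 1 h. Whether each line was a clone or a pool, and the strain or species of the FLT3 sequence, are not given in the sources used here, and no array of untransduced or untreated cells was analysed here. With 1 array per construct no difference has a replicate check, no test was made, and each SD given describes how far the 4 other constructs lay apart, not replicates.

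Pyruvate dehydrogenase turns pyruvate, the end product of glycolysis, into acetyl-CoA for the citric acid cycle inside mitochondria. Its kinases switch the complex off by adding phosphate to the E1 alpha subunit, and its phosphatases switch it back on by removing that phosphate. The balance between them decides how much pyruvate is burned and how much leaves the cell as lactate, and the kinases are known for their response to hypoxia and fasting. Gene expression reports the amounts of these transcripts and not the phosphorylation or activity of the complex.

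Upstream sequences from RefSeq (GRCm38.p6) were found for 9 of the 10 genes, all but Pdp1, in 11 windows of the 250 bases before a transcript start. They were searched for the E-box letters CACGTG, a palindrome that MYC and related factors can bind, and for ACGTG on both strands, which lies inside CACGTG and in hypoxia response elements. CACGTG stood in 2 of the 11 windows, against 6.02% of all 32851 windows of that length, and ACGTG in 4 of the 11, against 16.6%. The windows of Pdp2 and Pdk2 are shown because both hold CACGTG, while Pdp2 had the second widest range on the arrays, after Pdp1, and Pdk2 lay near the bottom of the scale. Capitals mark the matched letters, and both sequences run 5′ to 3′ on the gene's strand. The Pdp2 window lies at chr8:104591222-104591471 on the plus strand and the Pdk2 window at chr11:95041372-95041621 on the minus strand, each just upstream of the gene. The letters are a description of these windows and not evidence of binding.
Pdp2: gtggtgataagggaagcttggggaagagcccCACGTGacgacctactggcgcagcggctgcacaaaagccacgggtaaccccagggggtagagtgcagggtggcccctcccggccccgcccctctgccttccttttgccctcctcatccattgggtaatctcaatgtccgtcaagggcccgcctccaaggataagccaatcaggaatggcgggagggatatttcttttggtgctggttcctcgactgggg
Pdk2: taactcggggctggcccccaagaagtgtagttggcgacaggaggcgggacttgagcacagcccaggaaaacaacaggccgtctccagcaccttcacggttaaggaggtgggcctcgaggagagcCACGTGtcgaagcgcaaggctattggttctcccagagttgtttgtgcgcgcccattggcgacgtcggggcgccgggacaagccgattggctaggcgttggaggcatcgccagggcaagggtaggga

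Pdp1, the calcium-stimulated phosphatase that removes the inhibiting phosphates from E1 alpha, was low on ITD613 and well above that level on the other 4 arrays. Its probe set 1434228_at, the brighter of 2, read 5.91 on ITD78, 5.70 on ITD598, 5.99 on ITD602, 5.30 on ITD611 and 2.97 on ITD613 (log2 RMA values). Its probe set 1438201_at read 6.09, 5.58, 5.81, 4.87 and 2.96 on the same arrays. On both probe sets ITD613 was lowest by a wide gap and ITD611 was the next lowest. Against the mean of the other 4 arrays, the log2 difference on ITD613 was -2.75 with the first probe set (6.73-fold lower; 5.72 ± 0.31 SD on the other arrays, n = 4 arrays) and -2.63 with the second (6.20-fold lower; SD 0.52, n = 4 arrays).

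Pdp1 was the single gene of the set that lay at least 2-fold below every other array on ITD613, where 0.925% of the 9621 genes kept by the expression filter did so. By its distance from the nearest array, ITD611, it was number 7 among those genes, with a log2 difference of -2.33 on the first probe set and -1.92 on the second. Values up to 3.74 lie in a range where at least 100 probe sets of an array share 1 value, and Pdp1 on ITD613 lies in that range. With lower values raised to 3.74, the log2 difference of Pdp1 from ITD611 was -1.56, more than 2-fold, so the size depends on how low values are treated. The direction could not change, since raising low values cannot reverse an order. Among the other 4 arrays the 2 probe sets did not give one order: the first was highest on ITD602 and the second on ITD78. Both placed ITD611 below ITD598, by 0.40 and 0.71, where the SD of the difference between those arrays over all kept probe sets was 0.19.

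**Figure D1:**
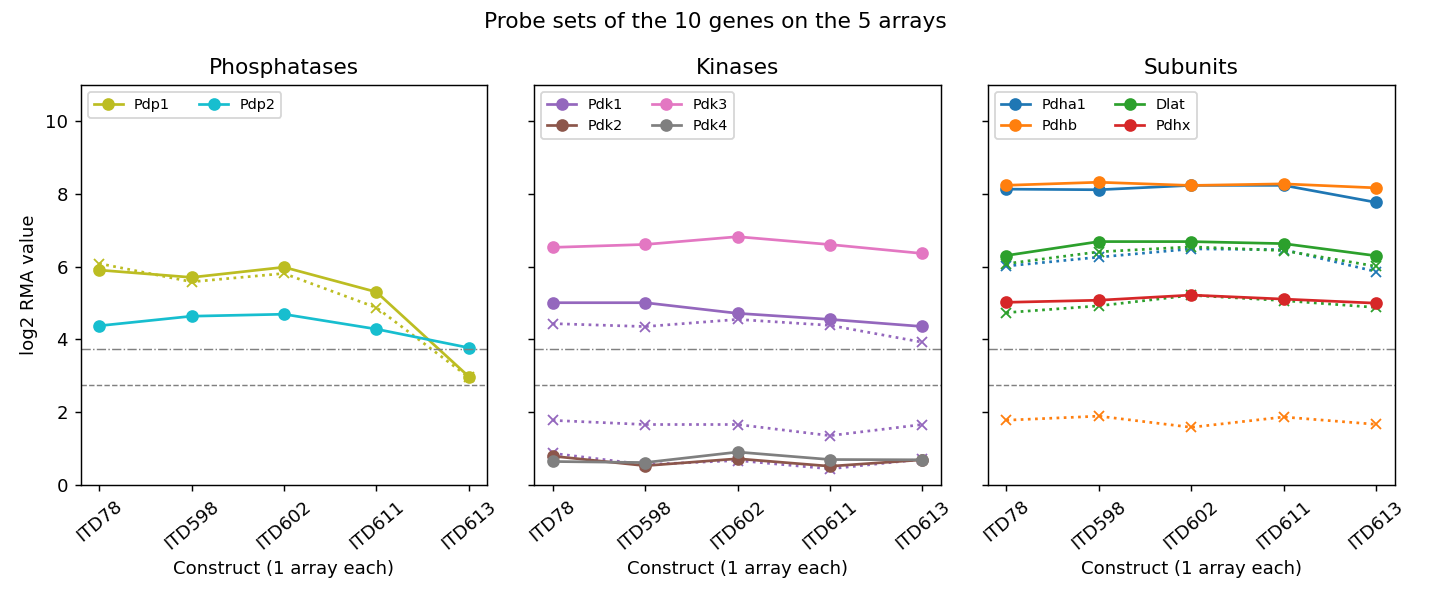
The log2 RMA value of each of the 18 probe sets is plotted for the 5 constructs, in panels for phosphatases, kinases and subunits. Circles on solid lines are the probe set with the highest mean for its gene and crosses on dotted lines its other probe sets; the lower grey line is the filter value of 2.75 and the upper one the highest shared value of 3.74. Both Pdp1 lines drop to about 2.97 on ITD613, whereas Pdk2, Pdk4 and the second Pdhb probe set stay under the filter value throughout.

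Pdp2, the phosphatase that does not depend on calcium, was also lowest on ITD613, by a smaller distance. It read 4.37 on ITD78, 4.64 on ITD598, 4.69 on ITD602, 4.28 on ITD611 and 3.77 on ITD613. The 4 other arrays lay within 0.41 of each other, and ITD613 was 0.51 below the nearest of them, again ITD611. ITD613 was 0.73 below the mean of the other 4 arrays (1.66-fold; SD of those 0.20, n = 4 arrays), which is short of 2-fold. The next values are a description, since the Pdp1 reading chose the set. The log2 value of Pdp2 minus that of Pdp1 was 2.02 higher on ITD613 than on average over the other arrays. It was 1.26 higher with low values raised to 3.74. Pdp2 read below Pdp1 on the 4 other arrays and above it on ITD613, at 3.77 against 2.97, a gap almost closed when 2.97 is raised to 3.74. Pdp2 has 1 probe set, so no second probe set could be set beside it.

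Of the kinases, Pdk1 and Pdk3 passed the filter, and both were lowest on ITD613. Pdk1, which cells induce through HIF1 under hypoxia, read 5.01 on ITD78, 5.01 on ITD598, 4.72 on ITD602, 4.55 on ITD611 and 4.35 on ITD613. Its second probe set above the filter read 4.43, 4.35, 4.55, 4.39 and 3.92. ITD613 was 0.47 below the mean of the other arrays with the first probe set (SD 0.23, n = 4 arrays) and 0.51 below with the second (SD 0.09, n = 4 arrays). The probe sets placed the other arrays differently, since ITD78 and ITD598 shared the top with the first and ITD602 was highest with the second.

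Pdk3, the kinase least held back by pyruvate, read 6.53 on ITD78, 6.61 on ITD598, 6.82 on ITD602, 6.61 on ITD611 and 6.36 on ITD613. ITD613 lay 0.28 below the mean of the other arrays and 0.17 below ITD78, the nearest. That gap is smaller than 0.18, the SD over genes of the difference between ITD598 and ITD611, the closest pair of arrays. Set against Pdp2, the phosphatase gene that did not choose the set, the log2 difference between Pdk3 and Pdp2 was 0.45 larger on ITD613 than on average over the other arrays.

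Pdk2, the most widely expressed kinase in tissues, and Pdk4, which fasting, glucocorticoids and PPAR agonists induce, did not pass the filter on any array. Pdk2 ranged from 0.51 on ITD611 to 0.79 on ITD78. Pdk4 ranged from 0.61 on ITD598 to 0.90 on ITD602. These values are at the bottom of the scale, where a difference between arrays says little, and each gene has 1 probe set. The 2 other Pdk1 probe sets, with values of 0.44 to 1.77, lay there too and did not follow the brighter ones.

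The subunit genes varied less than the phosphatases. Pdha1, the X-linked E1 alpha subunit that the kinases phosphorylate, read 8.13 on ITD78, 8.12 on ITD598, 8.24 on ITD602, 8.24 on ITD611 and 7.77 on ITD613. Its second probe set read 6.02, 6.26, 6.49, 6.47 and 5.86. The first probe set put ITD613 0.41 below the mean of the others (SD 0.07, n = 4 arrays), and the second 0.45 below (SD 0.22, n = 4 arrays). With the second, ITD78 was only 0.15 above ITD613.

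Dlat, the E2 subunit whose lipoyl arms carry the acetyl group, was low on both ITD613 and ITD78. It read 6.31 on ITD78, 6.69 on ITD598, 6.69 on ITD602, 6.63 on ITD611 and 6.30 on ITD613 with its brightest probe set. A second probe set gave 6.08, 6.41, 6.55, 6.44 and 6.01, and the third gave 4.74, 4.92, 5.21, 5.07 and 4.88. With the third, ITD78 and not ITD613 was lowest. The distance between ITD78 and ITD613 was 0.01, 0.07 and 0.14 on the 3 probe sets, in either direction, within the 0.18 spread of the closest pair.

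Pdhb, the E1 beta subunit, and Pdhx, which tethers E3 to the core, differed least. Pdhb read between 8.17 on ITD613 and 8.32 on ITD598, a range smaller than that of all but 7.32% of the kept genes. Its second probe set, at 1.58 to 1.89, was below the filter. Pdhx read between 5.00 on ITD613 and 5.22 on ITD602. In both genes ITD613 was about 0.1 below the mean of the other arrays, -0.10 for Pdhb and -0.11 for Pdhx.

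**Figure D2:**
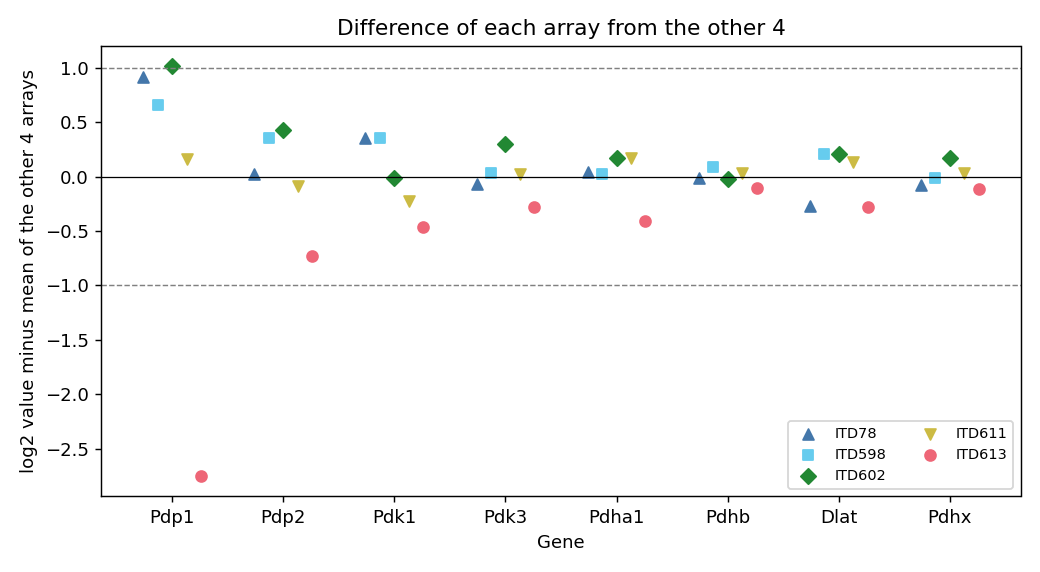
For the 8 genes above the filter, the log2 value on each array minus the mean of the other 4 is plotted, 1 symbol per construct; dashed lines mark a 2-fold difference. The ITD613 symbol is below 0 for all 8 genes, and the ITD613 symbol of Pdp1, at -2.75, is the only one past the lower line; Pdp1 on ITD602, whose mean of the other arrays includes ITD613, reaches the upper line, as 0.676% of the kept genes did on that array.

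Seen over the whole set, 8 of the 10 genes and 13 of the 18 probe sets passed the filter. All 8 genes had their lowest value on ITD613, where 29.4% of the kept genes did. Pdp1 is 1 of the 8, and its place was fixed, since its low value there chose the set. The other 7 were lowest there too. The further counts of low values in this paragraph also include Pdp1. Of the 13 probe sets, 12 were lowest on ITD613, and probe sets of 1 gene are not independent. The count was 6 of 8 after subtracting each array's median (without Dlat and Pdhx), against 24.8% of the genes kept there. It was also 6 of 8 when probe sets were averaged per gene (without Pdhb and Dlat), against 31.7%. The gap to the nearest array was more than 0.18 in 4 genes, Pdp1, Pdp2, Pdha1 and Pdk1, and in 15.6% of the kept genes. In either of those settings Pdk1 left the 4, so that 3 remained, against 12.6% and 15.3% of the kept genes, and without ITD78 there were 6, with Dlat and Pdk3, against 22.2%. Highest values fell on ITD602 in 5 of the 8 genes, against 30.4% of the kept genes.

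A range of at least 2-fold over the 5 arrays was found for 1 of the 8 genes, Pdp1, and for 10.4% of the kept genes. The ranges of the other 7 genes ran from 0.15 (Pdhb) to 0.92 (Pdp2), around a median of 0.43 over all kept genes. Set against the mean of the other arrays, the median on ITD613 was -0.20 for the 4 subunits and -0.37 for the 2 kinases above the filter, beside 0.01 over all kept genes. Of the phosphatases Pdp2 stood at -0.73, and Pdp1 at the -2.75 that chose the set. On ITD602 the subunit and kinase medians were 0.17 and 0.14, beside 0.03 over all kept genes, and Pdp2 stood at 0.43; the differences of the arrays are not independent, since each enters the mean for the others.

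Other genes of the complex and of the steps around it went both ways on ITD613. Dld, the E3 subunit, and Pdpr, the regulatory subunit of the phosphatase, both named after their values were seen, gave 7.91 against 8.17 ± 0.17 (SD, n = 4 arrays) and 6.25 against 5.94 ± 0.09 (SD, n = 4 arrays). Pdpr was thus higher on ITD613 where the catalytic phosphatase subunit genes were lower. The testis form Pdha2 did not pass the filter. For pyruvate transport and cofactor supply, 9 of 13 genes passed, with a median of -0.06 and none 2-fold apart from the mean of the other arrays in either direction.

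Of 17 genes of the citric acid cycle and of citrate use, 16 passed the filter, and 11 were below the mean of the other arrays on ITD613, as 47.7% of all kept genes were. On ITD78 14 of the 16 were below it, as 57.2% of all kept genes were. Their medians were -0.23 on ITD613, -0.09 on ITD78 and 0.14 on ITD602, and none differed 2-fold from that mean on any array. Across all kept genes 2.35% were 2-fold below this mean on ITD613 and 3.18% were 2-fold above it.

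Among 11 genes for other fates of pyruvate, 8 passed and 1 was 2-fold lower on ITD613. This was Gpt2, the mitochondrial enzyme that makes alanine from pyruvate, which read 3.16 on ITD78, 4.30 on ITD598, 4.62 on ITD602, 4.16 on ITD611 and 2.66 on ITD613. Its value on ITD613 was in the low range, ITD78 was also low, and each of its 4 probe sets put ITD613 below the mean of the others. Of the genes for the sister enzymes that oxidise other keto acids, 5 of 8 passed, with a median of 0.05 on ITD613, where 3 were above and 2 below the mean of the other arrays. The widest range was that of Bckdhb. Bckdhb, the E1 beta subunit of the branched-chain complex, read 5.59, 6.13, 6.34, 6.08 and 5.28 in the same order of arrays, with ITD78 again nearest to ITD613.

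Transcription regulators known to act on Pdk genes had a higher median on ITD613, 0.38 over 9 of 13 genes, beside 0.01 over all kept genes. Of the 9, 7 were above the mean of the other arrays, as were 52.2% of all kept genes, and 1 was 2-fold above it, against 3.18%. Stat5a, a signal transducer downstream of cytokine receptors and FLT3-ITD, read 4.07 on ITD78, 3.35 on ITD598, 3.66 on ITD602, 3.34 on ITD611 and 4.89 on ITD613. Its close relative Stat5b read 5.65, 5.10, 5.50, 5.38 and 6.28. Both were highest on ITD613 with ITD78 second, and both probe sets of each were above the mean of the other arrays on ITD613.

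**Figure D3:**
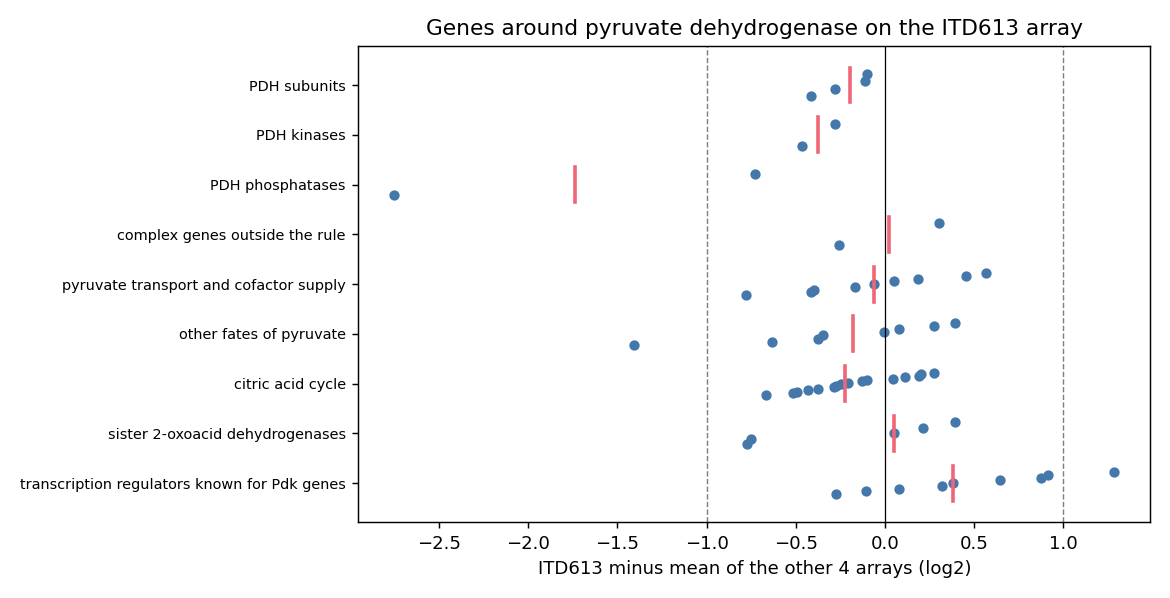
Each point is a gene above the filter, placed by its log2 value on ITD613 minus the mean of the other 4 arrays; rows are the gene lists, red bars their medians and dashed lines 2-fold differences. Pdp1 (-2.75) and Gpt2 (-1.41) lie past the lower line and Stat5a (1.29) past the upper one.

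The genes whose profile was nearest to that of Pdp1 were Selp (P-selectin), Pf4 (platelet factor 4), Cd69 (an early activation antigen), Tuba8 (an alpha-tubulin) and Csrnp1. Profiles of the 999 genes with a range of at least 1, each centred on its own mean over the 5 arrays, were compared by the root mean square of their differences. It was 0.21 for Selp, 0.29 for Pf4, 0.30 for Cd69, 0.37 for Tuba8 and 0.37 for Csrnp1. Selp read 6.12 on ITD78, 6.06 on ITD598, 5.74 on ITD602, 5.49 on ITD611 and 2.99 on ITD613, with ITD611 second lowest as for Pdp1. On ITD613 Selp and Pf4 (3.09) lay under 3.74 as Pdp1 did, where the size of a drop is uncertain. Cd69, Tuba8 and Csrnp1 lay above it, and the ranking was not repeated with low values raised. The other 7 pyruvate dehydrogenase genes had ranges under 1 and so were not among the 999. Of them Pdp2 was nearest, at 0.83, and Pdhb farthest, at 1.09. Pdp2 also had the widest spread of its own among the 7 (root mean square 0.33) and Pdhb the narrowest (0.05), so these distances largely restate how much each gene varied. The 5 nearest genes were all lowest on ITD613, the array on which Pdp1 was chosen, so the likeness over 5 arrays is a description.

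**Figure D4:**
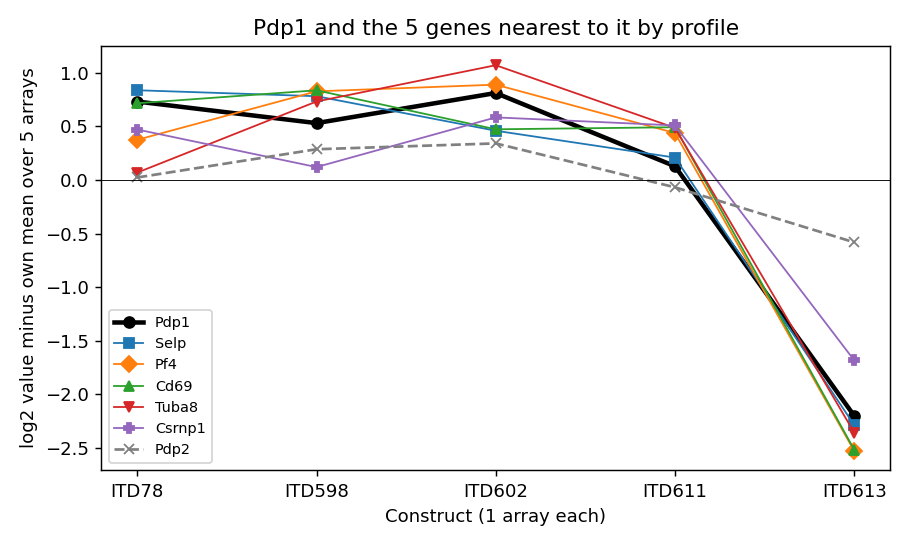
The log2 value minus the gene's own mean over the 5 arrays is plotted by construct for Pdp1 (thick black), the 5 genes nearest to it and Pdp2 (grey, dashed). All 5 genes are lowest on ITD613, while the Pdp2 line drops far less.

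Lineage marker genes differed between the same arrays. On ITD613, 4 of the 5 erythroid markers above the filter were at least 2-fold higher than the mean of the other arrays. Of all kept genes, 3.18% were so on ITD613. Log2 values over 6 erythroid markers summed to 46.9 there against 33.0 on ITD602, the lowest. The embryonic globin gene Hba-x and the red cell factor gene Klf1 ranged most. On ITD78, where Pdp1 was high, all 5 were also above the mean of the other arrays, 1 of them 2-fold. Of all kept genes, 42.7% were above it on ITD78 and 0.374% were 2-fold above it. Hba-x read 10.13 on ITD78 and 11.27 on ITD613, and Klf1 8.44 and 10.01. Of markers named after their values were seen, Epor stood at -0.10 on ITD613 and Alas2 did not pass the filter on any array. All 3 macrophage markers above the filter were 2-fold lower on ITD613, against 2.35% of all kept genes. Sums over 6 macrophage markers were 12.3 on ITD613 and 21.9 on ITD602, the highest, and Adgre1 and Fcgr1 ranged most. On ITD613 all 3 read under 3.74, where the size of a drop is uncertain. Csf1r, named after its values were seen, read 2.54 there, and 2 of its 3 probe sets put ITD613 below the mean of the others. On ITD78, where Pdp1 was high, 2 of these 3 markers were also 2-fold lower, with Adgre1 at 3.00 there and 2.68 on ITD613. Of all kept genes, 0.457% were 2-fold lower on ITD78. Cd68, Mrc1 and Cd14 did not pass on any array. Sums over 10 myeloid progenitor markers were 46.1 on ITD613 and 53.8 on ITD602. Of the 7 above the filter 3 were 2-fold lower on ITD613, against 2.35% of all kept genes. These were Ctsg, Prtn3 and Csf2rb, while Elane, Kit and Cebpa, also markers of such progenitors and like Prtn3 and Csf2rb named after their values were seen, did not pass the filter on any array. Myb and Il3ra, chosen in the same way, lay above the mean of the other arrays on ITD613, by 0.80 and 0.09. Mpo, which with Ctsg ranged most, read 5.18 on ITD613, inside the range of the others, from 4.52 on ITD78 to 6.55 on ITD598. The median over the 7 was -0.75 on ITD613 and -0.89 on ITD78, where Pdp1 was high. Megakaryocyte sums over 6 markers ran from 27.9 on ITD613 to 36.7 on ITD78, but the median on ITD613 was -0.05, with 3 markers above and 3 below. Pf4 and Selp stood at -3.16 and -2.86 there and Gp9, named after its value was seen, at 0.94, while Vwf read 6.56 on ITD78 and no more than 3.91 elsewhere. The sums of 5 mast cell and basophil markers ran from 16.4 on ITD78 to 22.5 on ITD613. Of the 4 above the filter, 3 were above the mean of the other arrays on ITD613 and 1 below. On that array 2 were 2-fold higher, against 3.18% of all kept genes. Fcer1a and Mcpt8 ranged most and stood at 3.25 and 0.68 there, Mcpt8 inside the range of the other arrays. Gata2, named after its value was seen, stood at -0.88, and Ms4a2, named in the same way, did not pass the filter on any array. No fibroblast marker and 1 lymphoid marker, Ighm, passed the filter. Whether a different mix or stage of cells has a part in the readings of Pdp1 and the other genes was not tested, and fewer cells of a type and less RNA per cell cannot be told apart in such bulk samples. By a date-like string in its title, ITD602 may have been run apart from the other arrays. Such a run and the construct cannot be told apart. Leaving that array out could not change the distance of Pdp1 on ITD613 from its nearest array, ITD611, so it gives no check.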

How the data were processed

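Total RNA of 5 transduced 32D lines was hybridised to Affymetrix Mouse430_2 arrays, 1 per construct, per the labels. The authors deposited log2 expression values from RMA, which corrects background, normalizes the arrays to each other and gives each probe set 1 value, per the submitters' processing notes. Its software and probe definition are not given in the sources used here. That the base is 2 was inferred from the values' maximum, the zero point is unknown, and 0 columns were left without a sample. Array medians ran from 1.99 to 2.06. Of 45101 probe sets 64 were controls and the platform annotation gave 34945 others a single gene symbol and 932 several, none of these with a gene of the set; gene IDs of 34741 matched RefSeq GRCm38.p6, which renamed 0.

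From these values a gene was represented by its probe set with the highest mean and kept where its highest value reached the 60th percentile of all values (2.75; 9621 of 18193 genes). Set apart means at least 1 (log2) beyond every other array. Every gene of the set was named, with up to 4 genes per pathway list and 2 per marker list of range at least 1, and the 5 genes nearest to Pdp1; others are said to be chosen after their values were seen. The members and lists were chosen with earlier results of these data known. A simulation tried the rule for lower genes on ITD613. It called 99 of 100 genes shifted by 1.5, 100 of 100 shifted by 2.5 and 0 of 9421 left unshifted. With 1 array per construct its noise could not be set from replicates. The 0 therefore depends on the noise assumed and gives no rate of false calls for the real arrays. Over genes, the SD of the difference was 0.18 between ITD598 and ITD611 but 0.63 between ITD602 and ITD613. Python 3.11.15 with pandas 2.3.3 and numpy 2.4.6 was used. Alternatives were leaving out arrays, raising low values, other probe set choices, scalings, filters and reference.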

Additional observations from a re-analysis of the deposited data

How the results depend on the processing

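Every alternative kept the sign of the values recomputed here: the Pdp1 distance on ITD613, the medians of kinases and subunits, and the difference of Pdp2. For the Pdp1 distance, raising low values or leaving out another array could not change the sign. A value was taken as moved where it shifted by at least 0.18, the SD of the closest pair of arrays. The Pdp1 distance of -2.33 became -1.56 when readings under 3.74 were lifted to it and -2.12 when probe sets were averaged, and ranged from -2.73 to -2.33 when 1 other array was left out, the larger value without ITD611. The kinase median of -0.37 became -0.14 with low values raised and -0.15 without a filter, since Pdk2 and Pdk4 then entered. The subunit median moved in 0 of 11 settings and the Pdp2 difference in 0 of 10, and the number of genes with a 2-fold range was 1 in all 11. Some of these settings could not move a value. Pdp2 has 1 probe set with every reading above 3.74, so raising low values and other probe set choices left it as it was. Raising low values and removing the filter left the subunit median as it was, since all 4 subunits lie above both limits. The 1 gene with a 2-fold range was Pdp1 throughout, whose low value on ITD613 chose the set. ITD613 was never left out, and leaving out another array or raising low values cannot widen a range. Those settings and the stricter filter could therefore not add a gene to that count. The alternatives for Pdp2, for the Pdp1 range and for the difference between Pdp2 and Pdp1 were added after seeing the data. No paired analysis was possible because each construct has 1 array. Precision is limited by that number. Differences between readings below 3.74 can hardly be sized, and where arrays share 1 value they cannot be ordered.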
